A study of Mus musculus with 12 samples.

Results

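The genes described here are those of the natriuretic peptide system: the peptide genes Nppa, Nppb and Nppc, the receptor genes Npr1, Npr2 and Npr3, and the processing enzymes Corin and Furin. They were chosen by gene symbol, and all 8 were found among the 18444 genes of the count files. Transcripts were measured by RNA sequencing in 12 libraries of frozen C57BL/6 mouse hearts, 3 in each of 4 groups. Hearts of wild-type (WT) littermates were compared with hearts of DYRK1B-Tg mice (D1-Tg), which carry a full-length mouse cDNA of the protein kinase DYRK1B behind the αMHC promoter, an element active in heart muscle cells. Each genotype was sampled 3 days after birth (P3) and in 8-week-old adults (P56), and the labels name no other treatment. How many founder lines were used, and whether a library is 1 heart, are not given in the sources used here, so p-values measure the spread between these libraries.

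Natriuretic peptides are hormones of the heart that promote loss of salt and water and relax blood vessels. ANP, made from Nppa, and BNP, made from Nppb, are secreted by heart muscle cells. Both genes are active in the fetal ventricle, fall to lower levels there after birth and rise again in strained or failing adult muscle. Both peptides bind NPR-A, the product of Npr1, which makes cGMP. CNP, made from Nppc, is mainly a product of endothelium, cartilage and brain and binds NPR-B, the product of Npr2, which also makes cGMP. NPR-C, the product of Npr3, takes up all of these peptides and clears them. Corin, a protease on the surface of heart muscle cells, cuts the precursor of ANP, and furin, a protease of the secretory pathway, cuts the precursors of BNP and CNP and activates other proteins.

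Nppa and Nppb lie next to each other on chromosome 4 and changed together in the adult comparison below, so the 250 bases before the start of each are shown. They are RefSeq sequences of build GRCm38.p6, 5′ to 3′ on the strand of the gene (the forward strand for both), and the count files were used without coordinates. The Nppa stretch is chr4:148000472-148000721 and the Nppb stretch is chr4:147985650-147985899. Capitals mark matches, on either strand, to 4 short motifs: GATAA (the core bound by GATA factors), AAGTG (bound by NKX2-5), CATTCC (bound by TEAD factors) and TATAAA (the letters of the TATA box).
Nppa: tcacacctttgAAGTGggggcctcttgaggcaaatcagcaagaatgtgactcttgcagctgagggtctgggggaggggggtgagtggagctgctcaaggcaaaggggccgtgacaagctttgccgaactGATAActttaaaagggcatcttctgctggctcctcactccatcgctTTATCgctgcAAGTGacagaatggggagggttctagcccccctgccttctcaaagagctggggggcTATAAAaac
Nppb: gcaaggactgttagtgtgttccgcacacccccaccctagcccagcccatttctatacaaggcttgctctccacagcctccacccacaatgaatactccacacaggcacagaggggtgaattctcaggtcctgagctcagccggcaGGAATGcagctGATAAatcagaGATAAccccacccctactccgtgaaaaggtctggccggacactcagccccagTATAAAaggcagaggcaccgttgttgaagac

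Both stretches held 2 matches to GATAA. In Nppa they ended 117 and 71 bases before the start, the second on the opposite strand, and in Nppb they ended 90 and 79 bases before it. Nppa also had 2 matches to AAGTG and no CATTCC, whereas Nppb had 1 CATTCC, on the opposite strand at 105 to 100 bases before the start, and no AAGTG. The TATAAA match lay 9 to 4 bases before the start in Nppa and 31 to 26 bases before it in Nppb. All distances depend on the RefSeq start of each gene. No match overlapped another. Neither gene had an exact match to the CArG box bound by SRF, searched as CCWWWWWWGG with W for A or T. Sequences with a mismatch to it, such as ctttaaaagg in Nppa, were not counted. Of 32817 mouse promoter windows of 300 bases (250 before and 50 after a start), 25.4% held GATAA at least once and 5.3% at least 2 times, 46.4% held AAGTG, 14.7% CATTCC, 13.6% TATAAA and 1.6% a CArG box. These are matches of letters, which are common, and binding was not measured.

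Libraries held 15742474 to 17095351 counts at P3 and 11174527 to 13231968 at P56, and levels are given as CPM, counts scaled to a common library size with TMM, as mean ± SD (n = 3). Dyrk1b, counted from the transgene and the animal's own gene together, was at 96.9 ± 7.43 CPM in WT and 798 ± 178 CPM in D1-Tg hearts at P56, a log2 fold change of 3.04 with a standard error (SE) of 0.15 and an adjusted p of 2.37e-07 by the quasi-likelihood test of edgeR. At P3 it was at 75.3 ± 3.35 CPM in WT and 84.7 ± 7.84 CPM in the libraries labelled D1-Tg (0.17, SE 0.14, adjusted p = 0.927), so the label is not borne out by the targeted gene at that age. WT P3 replicate 1 and D1-Tg P56 replicate 1 stood apart from their groups. Their chi-square over genes, divided by its degrees of freedom, was at least 26.52 and 19.45 to either replicate of the group, against 4.47 to 11.74 between all other pairs. WT P3 replicate 2 and D1-Tg P3 replicate 3 had 3.1 and 2.8 CPM in 4 Y-linked genes and the other libraries 126.3 to 194.1, so sexes were mixed at P3. Heart muscle markers were abundant in every library (7 genes, 40979 to 89384 CPM in sum), while 3 lung markers summed to at most 0.467 CPM and 6 skeletal muscle markers to at most 5.76 CPM.

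In adult hearts, both cardiac peptide genes were far higher in D1-Tg, and 1 receptor gene was slightly lower. Nppb rose 8.94-fold and Nppa 4.51-fold, Npr1 fell by 0.31 on the log2 scale, and Npr2, Npr3, Corin and Furin were not called. Of the 7 genes that passed the filter on low counts (Nppc did not), 2 were called higher and 1 lower at an adjusted p under 0.05. Over all 14212 genes tested, 14.1% were called higher and 11.5% lower. The median log2 fold change was 0.16 over the 7 genes and 0.00 over all genes tested.

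**Figure D1:**
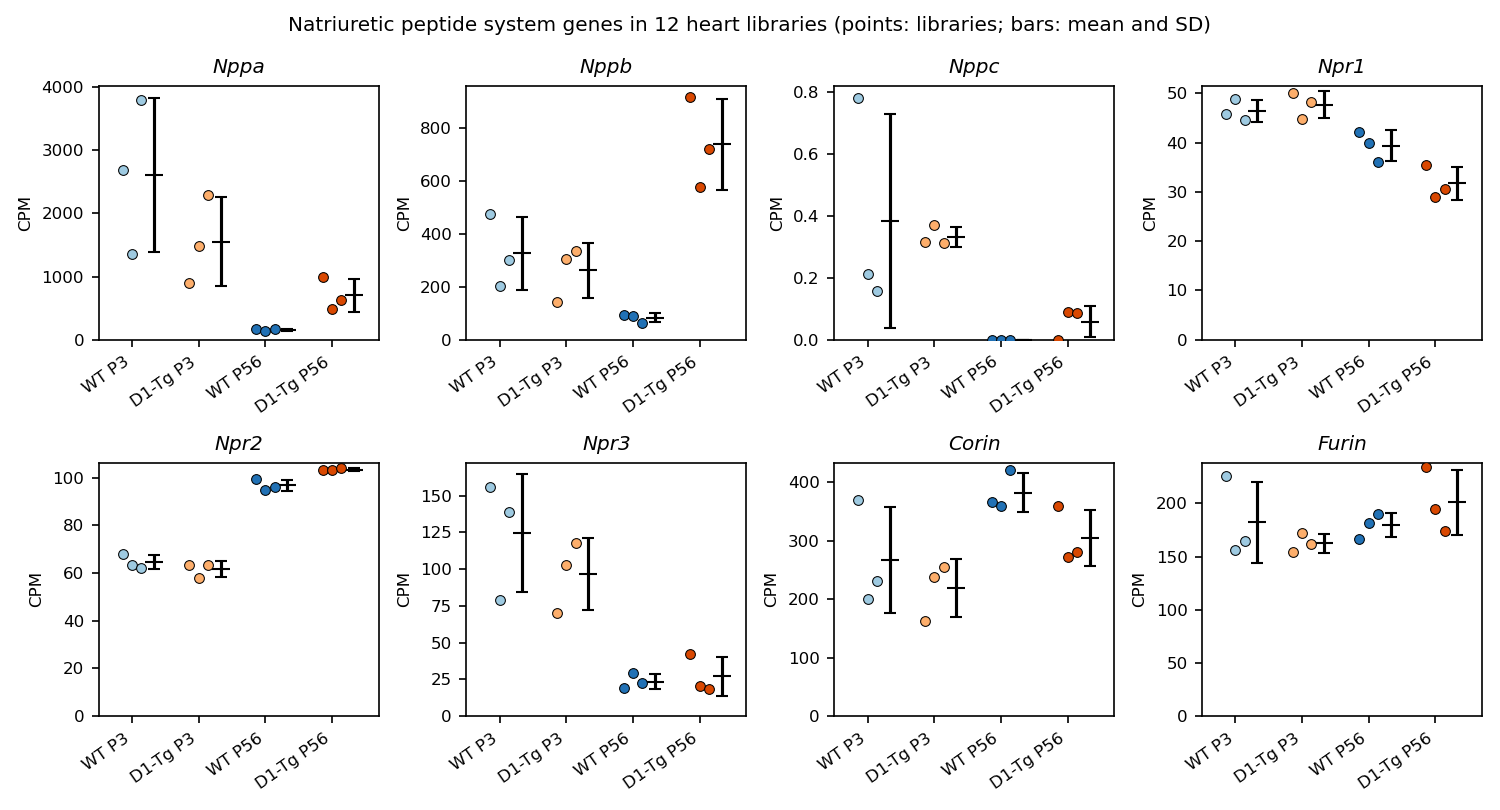
CPM of the 8 genes (y axis, each panel from 0 on its own scale) in WT and D1-Tg hearts at P3 and P56; points are libraries, and bars are the mean and SD of 3. Nppb in D1-Tg at P56 (574 to 914 CPM) lies above every other library, while Nppa at P56 lies at 483 to 993 CPM in D1-Tg and 142 to 164 CPM in WT.

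Nppb, the BNP gene, was at 94.2, 90.1 and 62.7 CPM in WT hearts at P56 and at 914, 574 and 720 CPM in D1-Tg hearts. The groups lay far apart: the lowest D1-Tg heart was 6.1-fold above the highest WT heart, and no other library of the series reached it. The log2 fold change was 3.16 (SE 0.36, 95% interval 2.38 to 3.94, adjusted p = 6.66e-05), the 94th highest of 14212. By mean level Nppb was gene 2440 of 18444 in WT at P56 and gene 193 in D1-Tg. Without D1-Tg replicate 1, the heart with the highest value, the change was 2.96 (SE 0.37, adjusted p = 0.000212).

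Nppa, the ANP gene, was at 162, 142 and 164 CPM in WT hearts at P56 and at 993, 483 and 630 CPM in D1-Tg hearts. Again the groups did not overlap, with the lowest D1-Tg heart 2.95-fold above the highest WT heart. The order of the D1-Tg hearts was the same for both genes, replicate 1 highest and replicate 2 lowest. The log2 fold change was 2.17 (SE 0.40, 95% interval 1.31 to 3.03, adjusted p = 0.00176), the 221st highest, and it was 1.83 (SE 0.39, adjusted p = 0.00639) without D1-Tg replicate 1. Nppa moved from gene 1212 by mean level in WT to gene 201 in D1-Tg.

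No gene of the system was called between the genotypes in newborn hearts. At P3, Nppa was at 2682, 1353 and 3792 CPM in WT and at 894, 1477 and 2287 CPM in the libraries labelled D1-Tg. The groups overlapped widely and varied 2.8-fold and 2.56-fold within themselves, and the log2 fold change was -0.75 (95% interval -1.57 to 0.07, adjusted p = 0.927). For Nppb the values were 474, 204 and 300 CPM in WT and 144, 306 and 334 CPM in D1-Tg, with a change of -0.32 (95% interval -1.03 to 0.40, adjusted p = 0.929). WT replicate 1 held the highest Nppb of the age, and without it the change was 0.05 (SE 0.32). The hearts low in Y-linked transcripts were the lowest WT and the highest D1-Tg heart for Nppa, and with a term for them the Nppa change was -0.74 (SE 0.42). None of the 7 genes tested was called at P3. The groups of all 7 overlapped, but the share of all genes whose groups overlap is not given here, so this only describes the values. The median of the 7 log2 fold changes was -0.29, against 0.00 over all genes. The background is the same, 0% of 14212 genes by edgeR, although 681 genes had an unadjusted p under 0.05 and DESeq2 called 1 gene.

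The difference of the genotype effects between the ages was tested as an interaction. Nppb had a log2 difference of 3.48 (SE 0.48, adjusted p = 0.000707) and Nppa of 2.92 (SE 0.55, adjusted p = 0.0042), both toward a more positive effect at P56. These 2 of 7 genes were called with a more positive difference, against a background of 8.42%, and 0 with a more negative one, against 6.42%. For Npr1 the difference was -0.35 (SE 0.12, unadjusted p = 0.0148, adjusted p = 0.0789 by edgeR). The values of Npr2, Npr3, Corin and Furin ranged from -0.04 to 0.57 with adjusted p of at least 0.204.

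**Figure D2:**
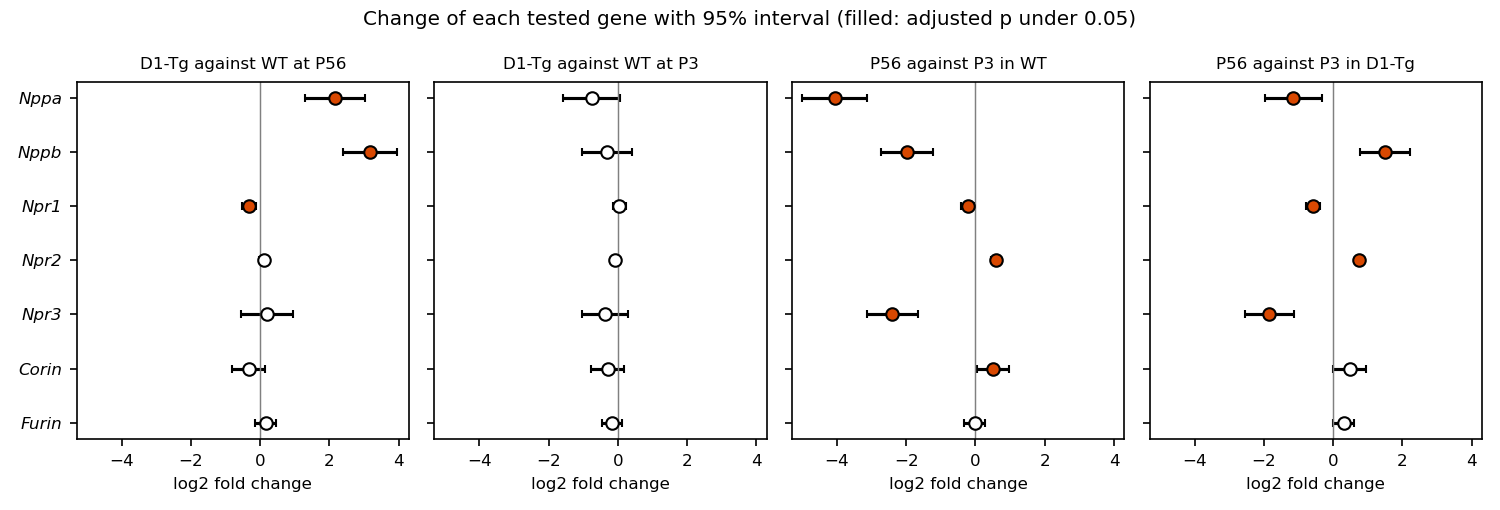
Log2 fold change (x axis) with its 95% interval for the 7 tested genes in 4 comparisons; filled points passed an adjusted p of 0.05. Nppa and Nppb lie at 2.17 and 3.16 in the adult genotype comparison and at -0.75 and -0.32 in the newborn one; Nppb has opposite signs in the age comparisons of WT (-1.98) and D1-Tg (1.50).

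With age, Nppa left the most abundant transcripts of these heart samples. It was gene 17 of 18444 by mean level in WT at P3 (2609 ± 1221 CPM) and gene 1212 at P56 (156 ± 12.2 CPM). The fall was 16.7-fold (log2 fold change -4.07, SE 0.43, adjusted p = 3.07e-06), and the lowest P3 heart was 8.27-fold above the highest P56 heart. In D1-Tg, Nppa fell less far, by 1.15 on the log2 scale (SE 0.38, adjusted p = 0.017), and D1-Tg P56 replicate 1 at 993 CPM was above D1-Tg P3 replicate 1 at 894 CPM. That call was lost without D1-Tg P3 replicate 3 (-0.76, adjusted p = 0.0984) and without D1-Tg P56 replicate 2 (-0.96, adjusted p = 0.0633). The interaction above tests the same difference between the age changes. Atrial markers, described below, also fell with age, and the part of atrial tissue in the fall of Nppa was not tested.

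Nppb fell with age in WT and rose in D1-Tg. In WT it went from 326 ± 137 to 82.3 ± 17.1 CPM, which is 3.96-fold lower (a log2 change of -1.98, SE 0.35, adjusted p = 0.00024). In D1-Tg it went from 261 ± 102 to 736 ± 171 CPM, 2.82-fold higher (1.50, SE 0.34, adjusted p = 0.0015), and neither pair of groups overlapped. Of the 7 genes, 2 were called higher and 4 lower with age in WT, against backgrounds of 33.8% and 35.1%. In D1-Tg 2 were called higher and 3 lower, against 35.7% and 34.9%. With so many genes changing with age, the counts are not read as a result about the system. The 7 log2 fold changes had a median of -0.23 in WT and 0.30 in D1-Tg, against -0.03 and 0.00 over all genes.

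The balance of the pair also moved. The count of Nppb divided by that of Nppa in the same heart, which needs no scaling between libraries, was 0.177, 0.151 and 0.079 in WT at P3 and 0.161, 0.207 and 0.146 in D1-Tg at P3. At P56 it was 0.582, 0.636 and 0.383 in WT and 0.921, 1.19 and 1.14 in D1-Tg. Every D1-Tg heart at P56 was thus above every WT heart at P56, and every adult heart was above every newborn heart. Per kilobase of exon, Nppa was at 180 ± 14.1 CPM per kb and Nppb at 105 ± 21.9 in WT at P56. In D1-Tg they were at 812 ± 303 and 943 ± 218, which overlapped in their spread between hearts. Both genes ran in the same order over these D1-Tg hearts, so that spread is not the spread of their difference. Together the peptide genes made up 226 to 256 CPM in WT at P56, 1058 to 1907 in D1-Tg at P56, and 1038 to 4091 over both genotypes at P3.

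**Figure D3:**
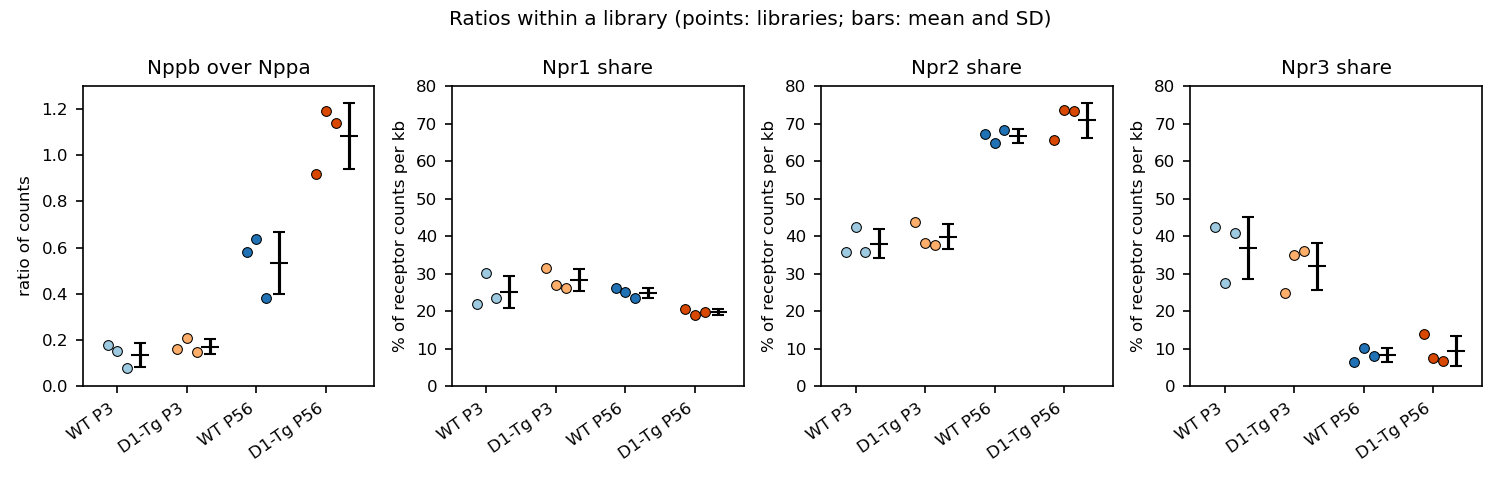
Ratio of the counts of Nppb to Nppa, and share of each receptor in the summed counts per kilobase of Npr1, Npr2 and Npr3 (%), by library; points are libraries, bars the mean and SD of 3. The ratio climbs from 0.079 to 0.207 at P3 to 0.921 to 1.19 in D1-Tg at P56, and Npr3 drops from 24.8 to 42.3% at P3 to 6.58 to 13.9% at P56.

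Nppc, the CNP gene, was close to undetected. Its rounded counts were 14, 4 and 3 in WT at P3 and 6, 7 and 6 in D1-Tg at P3. At P56 they were 0, 0 and 0 in WT and 0, 1 and 1 in D1-Tg. A total of 0 of 34936358 counts in WT at P56 allows a level of up to 0.0859 CPM over the group, taken as 3 counts. That limit was 4.99-fold below the summed Nppc level in WT at P3 (0.428 CPM, 95% counting interval 0.265 to 0.655). The ratio leaves out the counting error of the P3 sum. It rested on WT P3 replicate 1, without which it was 2.45-fold. In D1-Tg the ratio of P3 to P56 was 7.23 (95% counting interval 1.74 to 64, exact conditional). Both adult groups were under the limit of 3 counts, so no adult genotype difference could be detected at this depth. Intervals and limits of this kind cover counting error only.

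Atria express Nppa at much higher levels than ventricles, so the atrial part of each sample was read from 9 atrial markers. At P3 the Nppa level ran with them: Myl7, the atrial light chain, was at 303, 136 and 606 CPM in WT and at 39.9, 117 and 237 CPM in D1-Tg, and within each genotype the order of the 3 hearts was that of Nppa. The 9 markers summed to 623 to 1924 CPM in WT and 391 to 1109 CPM in D1-Tg. Of the 9, 0 were called between the genotypes, but so were 0 of all 14212 genes tested. The median log2 fold change of the 9 was -0.64, against 0.00 over all genes. How much of the spread of Nppa between newborn hearts comes from unequal atrial tissue was not tested. With age, 6 of the 9 markers fell in WT and 5 in D1-Tg, against 35.1% and 34.9% of all genes, with 1 higher in each. Myl7 went from 348 ± 238 to 12.4 ± 11.1 CPM in WT and from 131 ± 99.2 to 24.2 ± 36 CPM in D1-Tg. The part of atrial tissue in the age changes of Nppa and Nppb was not tested.

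From P3 to P56 the means of Myl4, Myl7, Sln, Bmp10, Dkk3 and Gja5 fell in both genotypes, while that of the potassium channel gene Kcnj3 rose. Stard10 was not called with age (adjusted p = 0.345 in WT and 0.158 in D1-Tg), and Kcnj5, another channel gene, was called lower in D1-Tg only. Myl4 was still at 128 CPM in D1-Tg P56 replicate 3. For Myl7 the order of the adult hearts was not that of the peptide genes. Myl7 was at 0.0964, 15.4 and 21.7 CPM in WT and at 6.63, 0.266 and 65.6 CPM in D1-Tg. Bmp10, an atrial growth factor, had no counts in any adult heart. The summed markers were at 243 to 333 CPM in WT and at 175 to 441 CPM in D1-Tg, and in WT Kcnj3 (126 ± 7.95 CPM) and Kcnj5 (96.1 ± 5.8 CPM) made up most of the sum. Of the 9 markers, Dkk3 was called higher (log2 fold change 1.97, adjusted p = 0.0271) and Kcnj5 lower (-0.93, adjusted p = 0.00371). Over all genes, 14.1% were called higher and 11.5% lower. D1-Tg replicate 2, with a Myl7 level of 0.266 CPM, held 483 CPM of Nppa and 574 CPM of Nppb. The part of atrial tissue in the adult peptide levels was not tested.

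**Figure D4:**
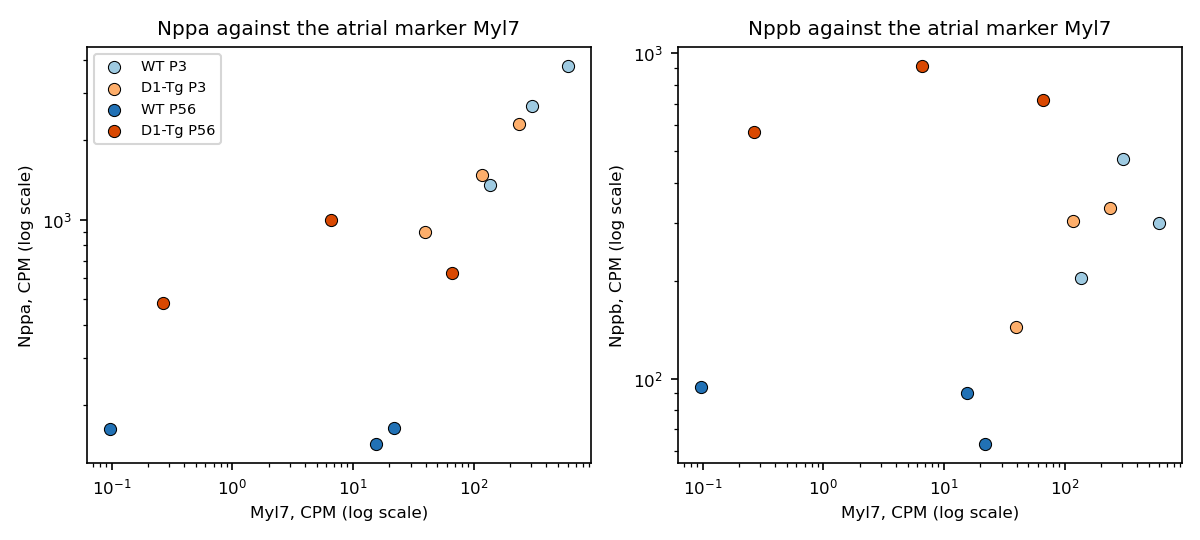
Nppa (left) and Nppb (right) against the atrial marker Myl7 in the 12 libraries, CPM on log axes. The P3 libraries line up for Nppa, whereas the 3 D1-Tg P56 libraries hold 483 to 993 CPM of Nppa over Myl7 levels from 0.266 to 65.6 CPM.

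The receptors for these peptides changed little with genotype. Npr1, which encodes the receptor of ANP and BNP, was at 42.2, 39.9 and 36.1 CPM in WT at P56 and at 35.5, 29 and 30.6 CPM in D1-Tg. The groups barely missed each other, with the lowest WT heart 1.02 times the highest D1-Tg heart. The log2 fold change was -0.31 (SE 0.09, 95% interval -0.51 to -0.12, adjusted p = 0.0236). The call was lost when the adult groups were fitted alone (adjusted p = 0.0645), without WT replicate 1 (0.0663) and without D1-Tg replicate 2 (0.06) or 3 (0.052). Markers of endothelium, one of the sites of Npr1, moved the same way: 6 of 8 were called lower in D1-Tg at P56, against 11.5% of all genes. Their sum was 1244 to 1289 CPM in WT and 959 to 1062 CPM in D1-Tg. The part of endothelium in the Npr1 level was not tested, and in heart tissue fewer cells of a type and less RNA per cell cannot be told apart.

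At P3, Npr1 was at 44.6 to 48.9 CPM in WT and 44.7 to 50 CPM in D1-Tg (log2 fold change 0.04, 95% interval -0.15 to 0.23). It fell with age by 0.23 in WT (SE 0.09, adjusted p = 0.0311) and by 0.59 in D1-Tg (SE 0.09, adjusted p = 6.83e-05). The WT call was lost with a sex term (adjusted p = 0.072), without P3 replicate 2 (0.102) and without P56 replicate 3 (0.0991).

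Npr2, which encodes the receptor of CNP, was the steadiest of the genes within groups. It was at 99.4, 94.9 and 95.9 CPM in WT at P56 and at 103, 103 and 104 CPM in D1-Tg, groups that did not overlap. The difference was small and was not called (log2 fold change 0.10, 95% interval -0.03 to 0.23, adjusted p = 0.238). At P3 it was at 62.3 to 67.9 CPM in WT and 57.8 to 63.5 CPM in D1-Tg (-0.07, 95% interval -0.19 to 0.06). Npr2 rose with age in both genotypes, by 0.58 in WT (SE 0.06, adjusted p = 2.14e-06) and by 0.75 in D1-Tg (SE 0.06, adjusted p = 2.15e-07). With plain library totals the rise was smaller, from 73.5 to 86.7 CPM in WT and from 69.4 to 90 CPM in D1-Tg.

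Npr3, which encodes the clearance receptor, fell steeply with age. In WT it was at 156, 79.2 and 139 CPM at P3 and at 18.9, 29.3 and 22.3 CPM at P56, 5.3-fold lower (log2 fold change -2.41, SE 0.34, adjusted p = 3.9e-05). In D1-Tg it was at 69.9, 103 and 118 CPM at P3 and at 42.5, 20.3 and 18.8 CPM at P56, 3.57-fold lower (-1.84, SE 0.33, adjusted p = 0.000291). Neither pair overlapped. The genotype change at P56 was not called (0.21, 95% interval -0.55 to 0.96, adjusted p = 0.71), and the direction rested on D1-Tg replicate 1, without which the change was -0.28 (SE 0.33). At P3 the change was -0.36 (95% interval -1.03 to 0.30).

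Endocardium, the inner lining of the heart, is a site of Npr3 in the young heart, and 4 of 5 endocardial markers also fell with age in WT (median log2 fold change -2.51). Those 4 were Hapln1, Plvap, Cdh11 and Nfatc1. In D1-Tg 4 of 5 fell too (median -1.92). Of all genes, 35.1% were called lower with age in WT and 34.9% in D1-Tg. The 5 markers summed to 315 to 375 CPM in WT and 286 to 360 CPM in D1-Tg at P3, and to 139 to 167 and 146 to 216 CPM at P56. The adult heart with the highest Npr3, D1-Tg replicate 1, had the sum of 216 CPM, of which Vwf, the marker not called with age, made up 145 CPM. Without Vwf its sum was 71.3 CPM, within the 56.7 to 77.7 CPM of the other adult hearts. It also held 48.6 CPM of 5 mesothelial markers, against 8.66 to 12.4 CPM in those hearts. The part of these cells in the Npr3 level was not tested.

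Divided by exon length, the shares of Npr2 and Npr3 differed between the ages. Of the summed counts per kilobase of the 3 receptors, Npr3 held 36.8 ± 8.24% in WT and 31.9 ± 6.21% in D1-Tg at P3, and 8.34 ± 1.86% and 9.36 ± 3.91% at P56. Npr2 went from 38 ± 3.96% to 66.7 ± 1.81% in WT and from 39.8 ± 3.35% to 70.8 ± 4.63% in D1-Tg. Npr1 was at 24.9 ± 1.3% in WT at P56 and at 19.8 ± 0.837% in D1-Tg, and these groups did not overlap. The count of Npr2 over that of Npr1 was 2.36, 2.37 and 2.65 in adult WT hearts and 2.91, 3.56 and 3.41 in adult D1-Tg hearts.

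The processing enzymes differed less than the peptides they cut. Corin was at 367, 359 and 421 CPM in WT at P56 and at 359, 273 and 281 CPM in D1-Tg. Replicate 1 of D1-Tg reached the WT range, and the log2 fold change of -0.33 was not called (95% interval -0.80 to 0.14, adjusted p = 0.296). At P3 Corin was at 370, 200 and 232 CPM in WT and at 163, 238 and 256 CPM in D1-Tg (-0.29, 95% interval -0.76 to 0.18). Without WT P3 replicate 1, the highest heart, that change was 0.02 (SE 0.18). With age in WT, Corin was called higher by 0.52 (SE 0.22, adjusted p = 0.049). The groups overlapped and the call was lost in 9 of 13 alternatives, among them the omission of WT P3 replicate 2 or 3 or of any adult heart. In D1-Tg the age change was 0.48 (95% interval 0.01 to 0.95, adjusted p = 0.0652).

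The count of Corin over that of Nppa, its substrate's gene, differed widely between groups. It was 2.26, 2.53 and 2.57 in adult WT hearts and 0.362, 0.564 and 0.446 in adult D1-Tg hearts. At P3 it was 0.0611 to 0.148 in WT and 0.112 to 0.182 in D1-Tg. Adult D1-Tg hearts therefore lay between adult WT and newborn hearts, and neither range met theirs.

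Furin was at 167, 182 and 190 CPM in WT at P56 and at 234, 195 and 174 CPM in D1-Tg, groups that overlapped (log2 fold change 0.16, 95% interval -0.14 to 0.46, adjusted p = 0.422). At P3 it was at 226, 156 and 165 CPM in WT and at 154, 172 and 162 CPM in D1-Tg (-0.16, 95% interval -0.46 to 0.13). Its age change was -0.02 in WT (95% interval -0.32 to 0.27) and 0.30 in D1-Tg (95% interval 0.01 to 0.60, adjusted p = 0.0624). Among the 7 other genes for cutting or clearing the peptides that were found in the files, 6 were tested. At P56 0 were called higher and 2 lower, against 14.1% and 11.5% of all genes. These 2 were Pcsk6 (a corin activator), which fell by 0.52 (SE 0.12, adjusted p = 0.008), and Pcsk7, which fell by 0.24 (SE 0.08, adjusted p = 0.0443). Mme, the gene of neprilysin, which degrades natriuretic peptides, was at -0.09 (adjusted p = 0.808).

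Ordered by mean CPM per kilobase, the genes in WT at P3 ran Nppa (3016), Nppb (417), Corin (53.8), Furin (39), Npr2 (17.3), Npr3 (17.2), Npr1 (11.4) and Nppc (0.368). Corin and Furin, and the 3 receptors, overlapped in their spread between hearts except Npr2 and Npr1. This ordering rests on group means and does not use that the genes share hearts. The order was the same in D1-Tg at P3, where Corin (44 ± 9.94) and Furin (34.8 ± 1.89), and Npr3 (13.4 ± 3.39) and both other receptors, overlapped in their spread. In WT at P56 the order was Nppa (180), Nppb (105), Corin (77), Furin (38.4), Npr2 (25.9), Npr1 (9.7), Npr3 (3.24) and Nppc, and Nppb (SD 21.9) and Corin (SD 6.82) overlapped in their spread. In D1-Tg at P56 Nppb (943) and Nppa (812) led, before Corin (61.3), Furin (43), Npr2 (27.8), Npr1 (7.81) and Npr3 (3.75).

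No tested gene beside Nppa and Nppb was called higher with them at P56. Clcn6, which follows Nppa, was at 15.6 to 18.6 CPM in WT at P56 and 14.9 to 16.5 CPM in D1-Tg (log2 fold change -0.13, adjusted p = 0.47), and 2510039O18Rik, which precedes Nppb, was at -0.22 (adjusted p = 0.0693). Of 7 tested neighbours 0 were called higher and 1 lower, Agtrap (-0.25, SE 0.07, adjusted p = 0.0154), with a median of -0.13. Over all genes, 14.1% were called higher and 11.5% lower, so these counts are not read as a result about the locus. Since the strand setting of the counting is not given in the sources used here, reads of overlapping genes at the locus cannot be told apart.

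Of 29 transcription factors and cofactors linked to the pair, 5 were called higher and 6 lower at P56, with a median of -0.01. Of all genes, 14.1% were higher and 11.5% lower. Hand2, a factor of the developing ventricle, had the lowest p: it was at 83.3 to 103 CPM in WT and at 220 to 326 CPM in D1-Tg (log2 fold change 1.43, SE 0.17, adjusted p = 8.91e-05). Tead1, a factor that binds the CATTCC motif found upstream of Nppb, rose by 0.46 (SE 0.07, adjusted p = 0.000696), with 298 to 330 CPM in WT and 429 to 438 CPM in D1-Tg. Tbx20 rose by 0.56 (SE 0.10, adjusted p = 0.00109), while Mef2a fell by 0.44 (SE 0.07, adjusted p = 0.000618) and Mef2d by 0.42 (SE 0.08, adjusted p = 0.00207). The factors for the other motifs were not called: Gata4 was at -0.08 (adjusted p = 0.532), Nkx2-5 at 0.14 (adjusted p = 0.241) and Srf at 0.12 (adjusted p = 0.394). With age 17 of the 29 fell in WT (35.1% of all genes did), Gata4 (-0.72, adjusted p = 8.62e-06) and Nkx2-5 (-0.66, adjusted p = 1.45e-05) among them, and 5 rose. Immediate early genes, which also respond to tissue handling, had 3 of 10 higher and 1 lower in D1-Tg at P56 (375 to 454 CPM in sum against 287 to 325 CPM), and their part in the Nppb level was not tested.

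Downstream of the receptors, 19 of 20 genes of cGMP signalling were tested, and at P56 3 were called higher and 3 lower, with a median of 0.01. These shares are near those of all genes (14.1% higher and 11.5% lower), so the values describe single genes. Prkg1, the cGMP-dependent protein kinase, was at 18 to 20 CPM in WT and 34.6 to 39.3 CPM in D1-Tg (log2 fold change 0.92, SE 0.16, adjusted p = 0.00106). Fibroblast markers moved the same way, with 5 of 7 called higher and sums of 991 to 1076 CPM in WT and 1958 to 2148 CPM in D1-Tg, and their part in the levels of these genes was not tested. Pde9a, whose enzyme degrades cGMP made by natriuretic peptide receptors, was at 2.3 to 3.76 CPM in WT and at 5.84 to 7.64 CPM in D1-Tg (1.05, SE 0.19, adjusted p = 0.00163). Pde1c, a phosphodiesterase activated by calcium, rose by 0.76 (SE 0.14, adjusted p = 0.00186). Of 3 subunits of the other cGMP source, the soluble guanylate cyclase that responds to nitric oxide, Gucy1a1 fell by 0.76 (SE 0.19, adjusted p = 0.0106) and Gucy1b1 by 0.74 (SE 0.15, adjusted p = 0.00333), and Gucy1a2 was at -0.41 (adjusted p = 0.212). Pde2a, a phosphodiesterase stimulated by cGMP, fell by 0.35 (SE 0.11, adjusted p = 0.0394). Pde5a was at 0.12 (adjusted p = 0.644). Smooth muscle and pericyte markers, from cells rich in soluble guanylate cyclase, summed to 1734 to 1750 CPM in WT and 962 to 1274 CPM in D1-Tg, with 5 of 8 called lower and 1 higher, and their part was not tested. At P3 0 genes of these lists were called, but so were 0 of all 14212 genes tested, so the count is not read as a result about them.

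**Figure D5:**
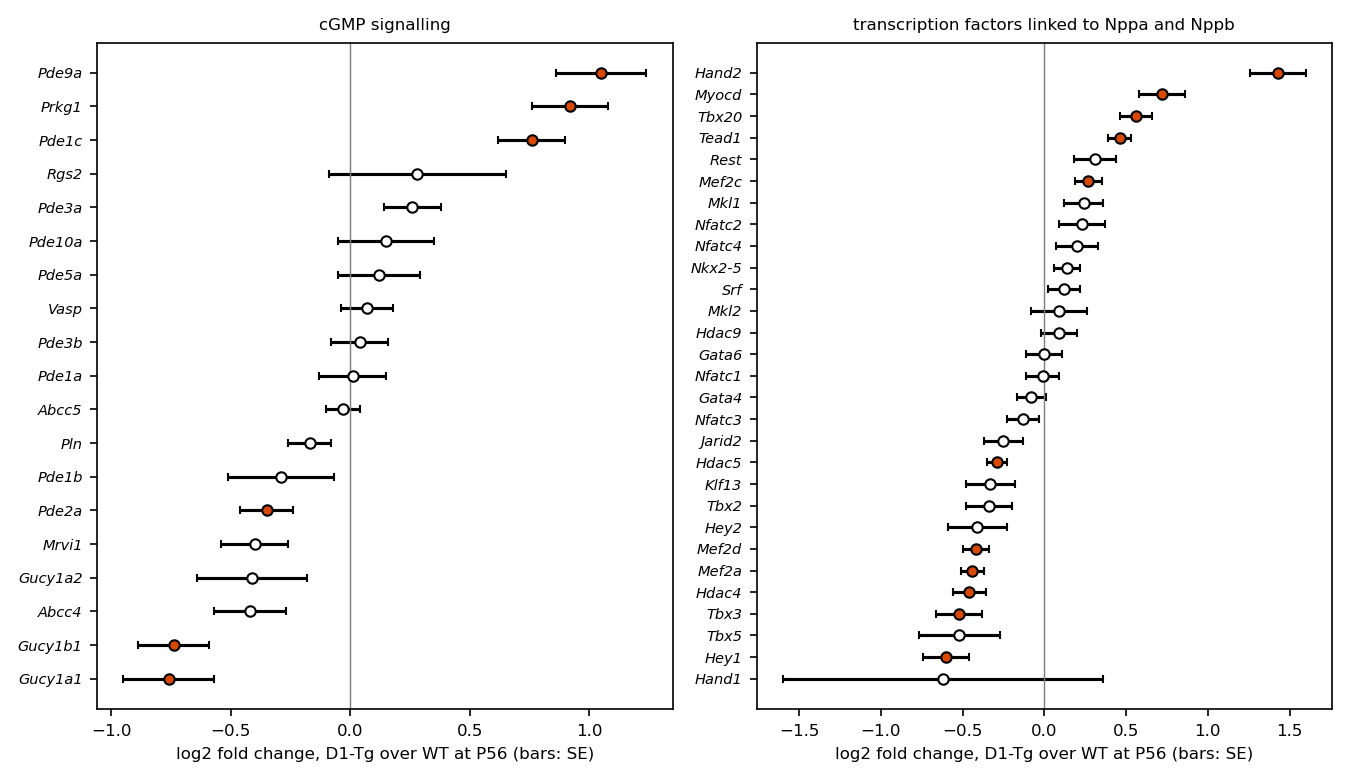
Log2 fold change of D1-Tg over WT at P56 (x axis) with its SE for cGMP signalling genes (left) and transcription factors linked to Nppa and Nppb (right); filled points passed an adjusted p of 0.05. In each panel called genes lie on both sides of 0, from Gucy1a1 at -0.76 to Pde9a at 1.05 and from Hey1 at -0.60 to Hand2 at 1.43.

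Among 15 genes of other hormone systems that act on vessels and salt balance, 2 were called higher and 3 lower at P56, with a median of 0.00, against 14.1% higher and 11.5% lower over all genes. Ace, the enzyme that makes angiotensin II, was at 143 to 149 CPM in WT and 315 to 399 CPM in D1-Tg (log2 fold change 1.25, SE 0.18, adjusted p = 0.000348). Agt, its precursor protein, was at 4.56 to 8.11 CPM in WT and at 42.4, 10.8 and 9.14 CPM in D1-Tg (1.78, SE 0.51, adjusted p = 0.0226), with replicate 1 far above the other D1-Tg hearts. Agtr1a, the angiotensin II receptor, fell by 0.76 (SE 0.10, adjusted p = 0.00025), Ramp2 by 0.49 (SE 0.11, adjusted p = 0.005) and Ednra, an endothelin receptor, by 0.41 (SE 0.13, adjusted p = 0.033).

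The genes whose levels ran most like each member were read from Pearson's r of log2(CPM + 1) over the 12 libraries, among 13280 genes with a mean of at least 1 CPM. For Nppa they were F2r (a thrombin receptor, r = 0.977), Slc7a5 (0.969) and Micalcl (0.968). F2r was at 155 ± 23.4 and 142 ± 17.1 CPM at P3, 43 ± 6.26 in WT at P56 and 89.5 ± 15.3 in D1-Tg at P56. For Nppb they were Scx (a tendon and valve transcription factor, 0.965), Ctgf (a matrix protein, 0.960) and Ipo4 (0.956), and Ctgf was at 99 ± 23.5 CPM in WT and 684 ± 199 CPM in D1-Tg at P56. Prdm16 was closest to Npr1 (0.976), Slc39a8 to Npr3 (0.983), Tfdp2 to Corin (0.955) and Sik3 to Furin (0.960). The 12 libraries form 4 groups, so such values mostly describe the group means and carry no test.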

How the data were processed

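The deposited files hold expected counts per gene and library, called read counts per the file headers, with decimals in 29.3% to 32.8% of genes and no normalization recorded by the authors. The submitters' processing notes list HISAT2 2.0.4, STAR 2.3.0, DESeq2, mm8 and mm9, without their roles, and neither the counting tool nor the strand setting is given in the sources used here. Gene IDs were matched to a RefSeq table of GRCm38.p6 (18313 of 18444, 99.3%), used for names, gene order and promoter sequences. Exon lengths are merged exons of GENCODE, from an annotation that may differ from the authors'. Older list symbols (Gucy1a3, Gucy1b3) were matched by synonym. The table joining the libraries was not used.

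Counts were rounded, filtered with filterByExpr on the 4 groups (14212 genes kept) and scaled by TMM. The 4 group means were fitted to all 12 libraries at once in edgeR 4.0.16 (R 4.3.3), leaving 8 residual degrees of freedom, and quasi-likelihood p-values were adjusted by Benjamini-Hochberg over all genes tested, threshold 0.05. SE is the absolute log2 fold change over the square root of F. Comparisons share groups: each group enters 3 of the 5, the interaction included. Members and lists were chosen with earlier results of these data known. Named from each pathway list are up to 5 called genes with the lowest p, and from the cell type lists markers beside the result they touch. Chosen after their values were seen are Pde2a, Pde5a, Gucy1a2, Mme, Gata4, Gata6, Nkx2-5, Srf, Clcn6 and 2510039O18Rik, and which markers of a list to name. Not every gene the rules give is reported here.

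Alternatives were RLE size factors, no filter, removal of the 10 most counted genes, the compared groups alone, a replicate block, a sex term (4 Y-linked genes of at least 10 CPM), DESeq2 1.42.0, each replicate left out, and plain library totals for levels.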

Additional observations from a re-analysis of the deposited data

Results flagged for a closer look

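Nppa and Nppb are listed here because their genotype effects differed between the ages by a test of the difference itself. The log2 fold change of D1-Tg against WT was larger at P56 than at P3 by 2.92 for Nppa (adjusted p = 0.0042) and by 3.48 for Nppb (adjusted p = 0.000707), and each was called in all 18 alternatives, with values of 2.55 to 3.31 and 3.11 to 3.73. Dyrk1b itself was not called higher in the libraries labelled D1-Tg at P3 (log2 fold change 0.17, adjusted p = 0.927) and was at P56 (3.04, adjusted p = 2.37e-07).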

How the results depend on the processing

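Of 490 recomputed changes of the 7 tested genes, 453 kept their direction and their side of the threshold, 18 lost and 6 gained a call, and 13 changed direction, none of them called. Nppa and Nppb at P56 and in the interaction kept their calls throughout, as did Nppa, Nppb, Npr2 and Npr3 with age in WT and Nppb, Npr1, Npr2 and Npr3 with age in D1-Tg. The number of genes called lower at P56 was 1, and 0 when the compared groups were fitted alone and, with single replicates left out, 0 to 1. In the interaction leaving out replicates gave 0 to 1 called with a more negative difference (Npr1 without WT P56 replicate 3 or D1-Tg P56 replicate 1). The number called higher with age in WT was 2, and 1, without Corin, with no filter, with the compared groups alone, with the replicate block and with a sex term, and 1 to 2 with replicates left out. Changes of direction were found for Npr3 at P56 without D1-Tg replicate 1 (-0.28, in a leave-one-out range of -0.28 to 0.39), for Nppb (0.05, range -0.57 to 0.05), Corin (0.02, range -0.46 to 0.02) and Furin (0.02, range -0.26 to 0.02) at P3 without WT replicate 1, for Corin in the interaction (0.13, 0.05, 0.02, 0.09, 0.03, 0.02 and 0.00, in a leave-one-out range of -0.35 to 0.13) and for Furin with age in WT (0.16 and 0.02, range -0.12 to 0.16). The causes were not tested. Corin (adjusted p = 0.0462 with DESeq2) and Furin (0.0481 with the compared groups alone) gained a call with age in D1-Tg. Corin also gained it without D1-Tg P3 replicate 3, and Furin without D1-Tg P56 replicate 3.

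Same-numbered libraries of the 2 genotypes did not deviate together (r of -0.35 to -0.02 over both ages). Deviations from the mean of 3 libraries depend on each other and can rest on a single library, so pairing by litter or batch is not excluded. With the replicate block Nppb at P56 was 3.14, Nppa 2.15 and Npr1 -0.31 (adjusted p = 0.0256). Corin with age in WT (0.54, adjusted p = 0.0542) lost its call.

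With plain library totals 19 of 32 group means stayed within 1 SD and 13 moved. TMM factors were 1.1113 to 1.1449 at P3 and 0.8514 to 0.9065 at P56, so scaling shifted every age change upward against plain totals. In WT, plain means went from P3 to P56 from 304 to 343 CPM for Corin and from 208 to 161 CPM for Furin. Those of Npr1 went from 52.8 to 35.4 CPM. No age change was refitted with plain totals, so the calls with age rest on this scaling. Without the filter, Nppc was tested and called lower with age in WT (adjusted p = 0.00735). At 3 libraries a group, small changes of Npr2, Npr3, Corin and Furin cannot be told from none.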
